A study of Mus musculus with 10 samples.

Results

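The Reg genes encode small secreted C-type lectins that were first described in regenerating pancreatic islets. Members were the rows of the deposited gene table whose symbol was Reg1, Reg2, Reg3a, Reg3b, Reg3d, Reg3g or Reg4. Of these 7 symbols, 6 had a row among 17945 named rows, and Reg4 was not analysed here. The libraries were RNA of whole islets from C57BL/6 mice aged 18 weeks: 5 controls (Grk5 flox/flox) and 5 knockouts (Pdx1-CreER with Grk5 flox/flox), so both groups carry the floxed alleles and only the knockouts the Cre. The comparison asks what the loss of Grk5, a kinase of activated G protein-coupled receptors, does to islet RNA. The driver is an estrogen-receptor-fused Cre under the Pdx1 promoter, which the labels call β-cell specific, although Pdx1 is also known from δ cells and, at a low level, acinar cells. Tamoxifen treatment, the sex of the animals and whether each library came from 1 animal are not given in the sources used here, so the p-values reflect only how these libraries vary, which may be partly technical.

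Reg1 and Reg2 are made in quantity by the acinar cells of the exocrine pancreas, whose digestive enzymes are co-secreted with them. The Reg3 genes encode lectins that include bactericidal proteins of the gut lining (Reg3b, Reg3g) and proteins that accumulate in the inflamed pancreas. Interleukin 6 and interleukin 22 raise Reg3 genes through the transcription factor STAT3, and the glycosyltransferase-like membrane protein EXTL3 has been proposed as a receptor for Reg proteins. Cpa1 and Cpb1, which encode the acinar digestive enzymes carboxypeptidase A1 and B1, served as a reference for exocrine RNA in each library.

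The 6 members lie together on chromosome 6 in GRCm38, within 98.2 kb from 78370657 to 78468872 (GENCODE M21). Reg3b, Reg3a, Reg2 and Reg1 are on the plus strand, and Reg3d and Reg3g on the minus strand. The coding sequences of Reg1 and Reg2 were the most alike, identical at 82.5% of 498 aligned bases, and the least alike pair, Reg2 and Reg3g, were identical at 62.8% of 489. The longest stretch identical between transcripts of any pair was 35 bases, between Reg3b and Reg3g, and Reg1 and Reg2 shared at most 19. Reads were sequenced as 75 bases from each end, per the labels' protocols, longer than any of these stretches.

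The sequences upstream of the RefSeq start sites of Reg1, Reg2 and Reg3b are shown because these were the 3 members with enough signal to be compared over all genes. They were taken from RefSeq on GRCm38.p6, plus strand, at chr6:78425783-78425959 for Reg1, chr6:78404955-78405131 for Reg2 and chr6:78370715-78370862 for Reg3b. Capitals mark the letters TATAAAA (the TATA box), CACCTG (an E-box) and TTCNNNGAA (a STAT element), searched on both strands. GENCODE M21 places the first base of each gene further upstream, so all 3 windows lie within the annotated genes, with 30 bases of the Reg1 window, 0 of Reg2 and 2 of Reg3b in an annotated exon and the rest intronic.
Reg1: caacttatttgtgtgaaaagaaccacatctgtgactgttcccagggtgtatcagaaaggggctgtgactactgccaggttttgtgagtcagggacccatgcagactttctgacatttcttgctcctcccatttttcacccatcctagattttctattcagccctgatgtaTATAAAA
Reg2: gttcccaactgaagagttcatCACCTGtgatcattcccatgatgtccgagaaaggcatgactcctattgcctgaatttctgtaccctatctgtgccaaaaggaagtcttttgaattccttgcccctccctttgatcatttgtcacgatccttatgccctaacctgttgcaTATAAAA
Reg3b: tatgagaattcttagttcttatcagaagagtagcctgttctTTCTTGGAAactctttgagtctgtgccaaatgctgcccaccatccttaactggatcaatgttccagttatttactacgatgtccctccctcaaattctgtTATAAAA

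TATAAAA began 30 bases before the annotated start of Reg1 and of Reg2, 29 before that of Reg3b and 27 before that of Reg3g. These are 4 of the 7 Reg promoters in the table, Reg4 included, while 4.98% of all 32851 promoters hold those letters within the 250 bases before the start. CACCTG was found in 5 of the 7 (Reg2, Reg3a, Reg3b, Reg3d and Reg4) and in 17.2% of all promoters. TTCNNNGAA was found in Reg3b, as TTCTTGGAA 129 bases before the start, and in Reg3d, as TTCCCAGAA 238 bases before it, against 7.02% of all promoters. These matches describe the letters in the window and not bound sites.

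Library totals ran from 5534386 to 7358040 normalized counts, with 10222 genes above 0 in knockout 1 and up to 14632 in knockout 3. An entry of 0 is not proof of absence. Between 1 and 5 of 80 genes with ribosomal protein symbols were also listed at 0 in each library. Those 80 were picked by symbol and include relatives of the core genes, and whether the ones at 0 are silent in islets was not tested. The summed level of 10 β-cell markers was 960729 to 1183713 in controls and 970943 to 1283460 in knockouts. All 10 had lower values in the knockouts (median log2 difference -0.21), as did 52.4% of all tested genes. None passed the test used below (limma, adjusted). Of the 10, 1 (Slc2a2) was lower at an unadjusted p under 0.05 by limma, where 2.66% of all tested genes were lower. The log2 difference of Slc2a2 was -0.49 ± 0.17 (SE), and by unadjusted p it came before Reg1 and Reg2. Whether β-cell RNA changed along with the Reg genes was not tested. Grk5 did not separate the groups, at 127.9 to 386.9 in controls and 94.4 to 269.8 in knockouts. The CreER fusion carries estrogen receptor sequence, so its reads can count toward Esr1, the gene of estrogen receptor α. Esr1 was 0 to 10.5 in controls 1, 3 and 4, but 2495.0 in control 2, 773.5 in control 5 and 1516.7 to 3176.8 in the knockouts. Controls 2 and 5 thus went against their label on this measure, and the Reg differences are also given without them. In controls 2, 3 and 5, 9.0% to 11.2% of values above 0 lay midway between multiples of the library's commonest low value, against 1.22% to 1.44% in the other libraries. These 3 are all controls, while controls 1 and 4 were like the knockouts on this measure, so the feature is partly confounded with genotype. Its part in the Reg values was not tested.

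Reg1 was the most abundant member, and its values were lower in most knockout islets without passing the test over all genes. Controls 1 to 5 had 1229.2, 309.7, 1637.1, 1749.0 and 1931.6 normalized counts of Reg1. Knockouts 1 to 5 had 124.2, 572.8, 633.3, 49.4 and 316.5. Of the controls, 4 lay above every knockout, while control 2 lay below knockouts 2, 3 and 5, so the groups overlapped through 1 control library. Mean normalized counts of Reg1 were 1371 ± 647 for the 5 controls and 339 ± 261 for the 5 knockouts (SD).

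On the log2(value + 8) scale, which understates changes at low values, Reg1 differed by -2.25 ± 0.74 (SE), knockout minus control, with 95% limits of -3.89 to -0.61. The unadjusted p by limma was 0.0121 and the adjusted p over all 11711 genes tested was 0.942, so Reg1 did not pass the threshold of 0.05. An exact 2-sided permutation test over the libraries gave p = 0.0317 for Reg1, where the smallest that 5 against 5 libraries allow is 0.00794. Counted from the lowest log2 difference of all genes tested, Reg1 ranked 27, Reg3b 23 and Reg2 6, and by p Reg1 ranked 142. The difference for Reg1 was -2.63 without controls 2 and 5 and -2.72 without control 2. For Reg1 the authors' deposited table lists a log2 fold change of -2.01 and an adjusted p of 0.144.

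Reg2, the closest relative of Reg1, was far lower per length of transcript and much more uneven. Controls 1 to 5 had 297.6, 19.4, 2232.0, 68.0 and 80.3 normalized counts of Reg2. Knockouts 1 to 5 had 0, 33.5, 36.9, 0 and 46.4. Controls 1, 3, 4 and 5 lay above every knockout, control 2 lay below knockouts 2, 3 and 5, and control 3 stood above all other libraries.

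The log2 difference of Reg2 was -2.85 ± 1.02 (SE), with 95% limits of -5.00 to -0.70. By limma its p was 0.0126 before and 0.942 after adjustment. The exact 2-sided permutation test gave p = 0.0556 for Reg2. Without control 3 the difference of Reg2 was -1.91 ± 0.89 (SE), and without controls 2 and 5 it was -4.02 ± 1.06 (SE). For Reg2 the authors' deposited table lists -4.51 and an adjusted p of 0.275. The authors' own test put 19 genes at an adjusted p under 0.05. By its unadjusted p, Reg1 ranked 59 and Reg2 122 of 16689 genes.

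Reg3b, a pancreatitis-associated lectin, was carried by 1 library. Controls 1 to 5 had 28.8, 0, 2137.2, 61.6 and 99.2 normalized counts of Reg3b. Knockouts 1 to 5 had 0, 0, 58.5, 35.3 and 0. Leaving control 3 aside, the remaining controls reached 99.2 and the knockouts 58.5, and both groups held libraries listed at 0.

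The log2 difference of Reg3b was -2.33 ± 1.20 (SE), with 95% limits of -4.87 to 0.22 and an adjusted p of 0.942 by limma. An exact 2-sided permutation test gave p = 0.167 for Reg3b. Without control 3 its difference was -1.17 ± 0.92 (SE), and without controls 2 and 5 it was -3.36 ± 1.25 (SE). For Reg3b the authors' deposited table lists -4.63 and gives no p-value.

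The other Reg3 genes were listed at 0 in most libraries and were below the filter for the comparison over all genes. Reg3a, a Reg3 lectin, was 166.7 in control 3 and 7.06 in knockout 4, and was listed at 0 in the other 8 libraries. Reg3d, related to islet neogenesis-associated protein, was 96.2 in control 3, 21.6 in control 4, 21.4 in knockout 3 and 5.81 in knockout 4. Reg3g, a bactericidal lectin of the intestine, was 110.6 in control 3, 21.6 in control 1 and 37.7 in knockout 2. In each of these 3 genes the highest library was control 3. Knockout 4 for Reg3a and knockout 2 for Reg3g lay above every control but control 3. Exact 2-sided permutation tests gave p = 1 for Reg3a, p = 0.563 for Reg3d and p = 0.722 for Reg3g.

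**Figure D1:**
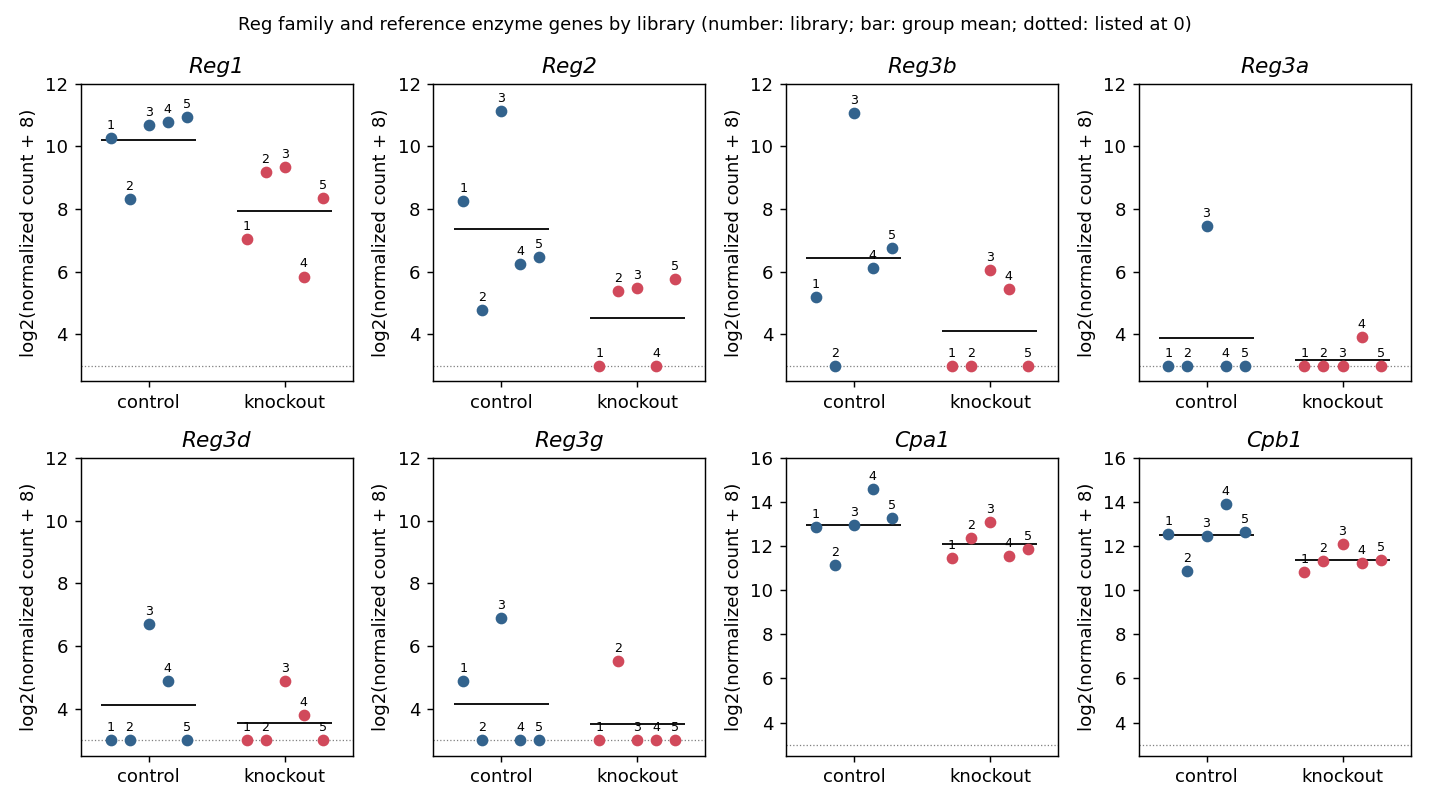
Normalized counts of the 6 Reg genes and of Cpa1 and Cpb1 in each library, as log2(normalized count + 8). Points are libraries with their number, horizontal bars are group means and the dotted line marks a value listed at 0. Control 3 is the highest library for Reg2 and all 4 Reg3 genes, and control 2 is the lowest control for Reg1 and Reg2.

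Of 3 Reg members tested, 0 passed at an adjusted p under 0.05 by limma, where 0% of all genes tested passed. At an unadjusted p under 0.05, Reg1 and Reg2 were lower, where 2.66% of all tested genes were lower and 2.36% higher at that level. All 3 had a log2 difference under 0, as did 52.4% of all tested genes. The tested members had a median log2 difference of -2.33, against -0.03 over all tested genes. Differences of -2 or lower were found for all 3 tested members and for 0.41% of all genes tested. Without control 3 only Reg1 was past that size (-2.12, with Reg2 at -1.91 and Reg3b at -1.17) and the median was -1.91. Without knockout 4 Reg1 was at -1.72, and with the mean log2 value of Cpa1 and Cpb1 as a covariate the median was -1.22. The groups overlapped for all 3 members, while 0.427% of all tested genes were lower with no overlap. The 3 tested members are not the whole family: Reg2 reached the filter in all 5 controls and 3 knockouts, and Reg3b in 4 controls and 2 knockouts, so their presence among the tested genes leans on the controls.

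Per kb of annotated exon, Reg1 led the family with a median of 1811 in controls and 350 in knockouts. Reg2 followed at 84.3 and 35.2, then Reg3b at 53.9 and 0, and the medians of Reg3a, Reg3d and Reg3g were 0 in both groups. Reg2 and Reg3b overlapped in both groups on this scale, whereas Reg1 was above Reg2 in every library but control 3, where Reg2 reached 2345 and Reg1 1811. Cpa1 and Cpb1 had medians of 4501 and 1854 per kb in controls, and 2165 and 770 in knockouts.

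The make-up of the family varied from library to library. Reg1 made up 79.6% to 94.4% of the summed Reg level per kb in controls 1, 2, 4 and 5. In control 3 it made up 28.3%, with 36.6% from Reg2 and 35.1% from the Reg3 genes. Among knockouts Reg1 was the sole member above 0 in knockout 1, made up 85.7% to 92.3% in knockouts 2, 3 and 5, and 53.8% in knockout 4. The summed level in knockout 4 was the lowest of all, 101.5 per kb, and that in knockout 1 the next lowest, 137.4. The shares of both rest on little signal, and knockout 1 also had the fewest genes above 0 (10222).

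**Figure D2:**
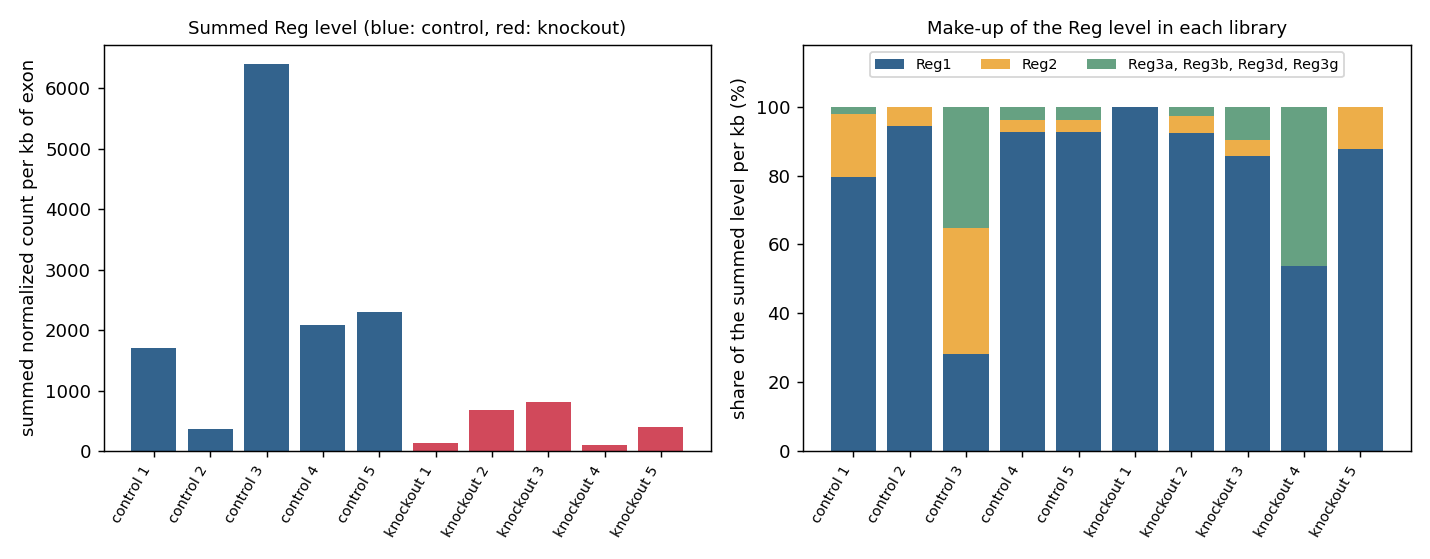
Left, summed level of the 6 Reg genes per kb of exon in each library, from 101.5 in knockout 4 to 6404 in control 3. Right, the share of that level held by Reg1, Reg2 and the 4 Reg3 genes, with Reg1 at 28.3% in control 3 and 79.6% to 94.4% in the other controls.

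Control 3 held 88.3% of the Reg3b signal summed over the 10 libraries, a share that no other tested gene reached in any library. For Reg2 the share of control 3 was 79.3%, reached in some library by 10 of 11711 tested genes, Reg2 included. The median gene had 20.4% of its signal in its highest library, and Reg1 had 22.6%, in control 5. Among the members below the filter, control 3 held 95.9% of the Reg3a signal, 66.4% of Reg3d and 65.1% of Reg3g. Control 3 was the highest library for 0 of 31 acinar enzyme genes and for 728 of all 11711 tested genes.

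The receptor candidate and the inducing cytokine pathway were examined as a list of 22 genes, of which 14 were tested. Of these 14, 8 had lower and 6 higher values in the knockouts, with a median log2 difference of -0.26, and none passed by limma. Of all tested genes, 52.4% had lower values. At an unadjusted p under 0.05 by limma, 1 of the 14 was lower and none higher, where 2.66% of all tested genes were lower and 2.36% higher. Extl3, the receptor candidate, averaged 230 ± 71.4 over the 5 controls and 168 ± 72.8 over the 5 knockouts (SD). Its log2 difference was -0.49 ± 0.41 (SE), with an unadjusted p of 0.246 by limma. The cytokine genes Il11, Lif, Il22 and Tnf were below the filter, and Il6, Osm, Il17a and Il22ra1 were not analysed here.

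Socs3, an inhibitor of cytokine signalling whose transcription STAT3 drives, was the list's member with the smallest p. It was 412.3, 422.1, 1510.5, 451.7 and 672.2 in controls 1 to 5. In knockouts 1 to 5 it was 343.5, 266.1, 286.2, 510.0 and 430.3. Control 3 was again the highest library, and the other 4 controls overlapped the knockouts. Its log2 difference was -0.75 ± 0.35 (SE), and its p by limma was 0.0457 before and 0.942 after adjustment. Stat3 itself was 1406.5 in control 3, the lowest of the controls, and averaged 1865 ± 428 over the controls and 1506 ± 596 over the knockouts (SD, n = 5). Il6st, which encodes the shared receptor chain gp130, averaged 958 ± 241 and 722 ± 218, and the kinase gene Jak1 1409 ± 377 and 1080 ± 355, controls first (SD, n = 5).

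The reference enzymes varied widely between islet preparations and were also lower, on average, in the knockouts. Controls 1 to 5 had 7524, 2232, 7877, 24443 and 9822 normalized counts of Cpa1. Knockouts 1 to 5 had 2846, 5339, 8804, 3020 and 3788. Cpb1 ranged from 1880 to 15444 in controls and from 1813 to 4399 in knockouts. The groups overlapped for both enzymes: control 4 was the highest library for each, and control 2 lay below every knockout for Cpa1.

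The log2 difference was -0.87 ± 0.62 (SE) for Cpa1 and -1.12 ± 0.50 (SE) for Cpb1, each smaller than that of the 3 tested Reg genes, and neither passed by limma (adjusted p = 0.948 and 0.942). Of 31 acinar enzyme genes tested, 29 had lower values in the knockouts, as did 52.4% of all tested genes. The summed level of the 31 enzyme genes was 25791 to 338273 in controls and 38563 to 106698 in knockouts. Their median log2 difference was -0.96, and the smallest p was that of the trypsinogen gene Try5, at 6415 ± 3119 for controls and 2097 ± 922 for knockouts (SD, n = 5), with an adjusted p of 0.942 by limma. Of the acinar transcription factors 3 were tested (median -0.05): Rbpjl differed by -1.25, Bhlha15 by -0.05 and Nr5a2 by 0.61, and none passed. Rbpjl averaged 36.4 in controls and 9.1 in knockouts, and Nr5a2 9.5 and 23.3, so both were near the floor, while Bhlha15 averaged 275 and 253. In whole islets, fewer acinar cells and less RNA per acinar cell cannot be told apart.

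Of the genes that acinar cells are known to raise on injury, 11 were tested. Of these, 7 had lower values, as did 52.4% of all tested genes, and the median log2 difference was -0.24. The keratin gene Krt8, expressed in acinar cells and other epithelia, had the smallest p in that list. Krt8 was 5101.8 in control 2 and 5053.0 in control 4, the lowest and highest controls for Cpa1. It was 4485 to 6021 in controls and 3362 to 4413 in knockouts, so that the groups did not overlap, as for 0.862% of all genes tested in either direction. Its adjusted p was 0.881 by limma.

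Markers of other islet and pancreas cells were measured in the same libraries. The tested duct markers had a median log2 difference of 0.13 (6 genes), macrophage markers -0.03 (9 genes) and stellate markers 0.01 (5 genes). Their summed levels overlapped between groups, at 1119 to 1773 in controls and 1113 to 2681 in knockouts for duct markers, and 641 to 1162 against 786 to 1359 for macrophage markers. For stellate markers they were 617 to 962 in controls and 569 to 789 in knockouts. All 7 endothelial markers had higher values in the knockouts (median 0.35), where 52.4% of all tested genes had lower values. Their summed level was 2268 to 2833 in controls and 2728 to 3382 in knockouts, with none at an unadjusted p under 0.05 by limma. The duct marker Cftr and the macrophage marker Adgre1 were not analysed here, and Krt19, Itgam, Dcn and Lum were below the filter. The part of these cells in the Reg values was not tested.

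Across the 10 libraries Reg1 was higher where the acinar reference was higher. The mean log2 value of Cpa1 and Cpb1 correlated with Reg1 at r = 0.81 (permutation p = 0.0045, adjusted 0.0196 over 6 relations) and rho = 0.93 (permutation p = 0.00027, adjusted 0.00162). Without the 2 libraries farthest from the median of the reference, controls 2 and 4, r was 0.91 over 8 libraries (exact permutation p = 0.000942). Without knockout 1, r was 0.77 and its adjusted p was 0.0876 by exact permutation. The groups differ along both axes and 5 libraries of a group are too few for a correlation, so a relation within a genotype was not computed.

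For Reg2 and Reg3b the correlation passed in rank and not in r. For Reg2, r was 0.54 (permutation p = 0.107, adjusted 0.109) and rho was 0.80 (permutation p = 0.00771, adjusted 0.0154). For Reg3b, r was 0.57 (permutation p = 0.0846, adjusted 0.109) and rho was 0.73 (permutation p = 0.0218, adjusted 0.0300). Without controls 2 and 4, r was 0.75 for Reg2 and 0.66 for Reg3b, with exact permutation p = 0.0262 and p = 0.0573. Control 3 lay far above the other libraries of like Cpa1 and Cpb1 level for both genes. The differences between these correlations were not tested.

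**Figure D3:**
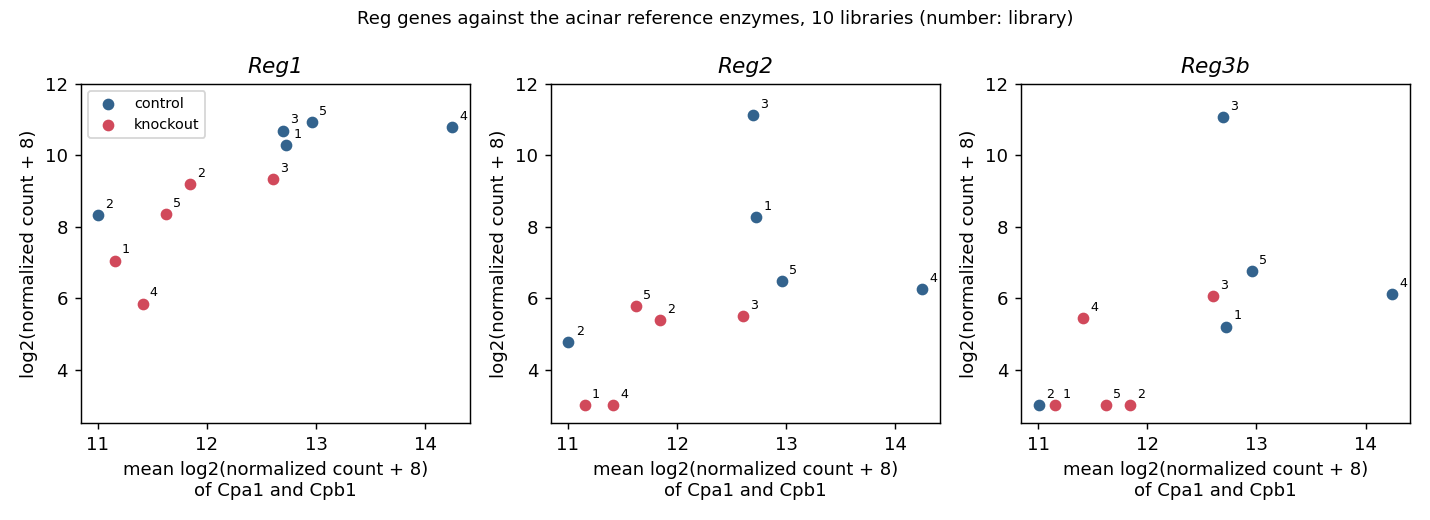
Log2(normalized count + 8) of Reg1, Reg2 and Reg3b against the mean of the same value of Cpa1 and Cpb1, 1 point per library with its number. Reg1 is higher where the reference is higher (r = 0.81), knockouts 1 and 4 lie lowest for Reg1, and control 3 lies apart for Reg2 and Reg3b.

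Among the members, Reg1 correlated with Reg2 at r = 0.79 (permutation p = 0.00655, adjusted 0.0196) and rho = 0.86 (permutation p = 0.00257, adjusted 0.00771). Without controls 1 and 3, the libraries farthest from the median of Reg2, r was 0.93 (exact permutation p = 0.00114), so the relation held without control 3. Without knockout 1 it was 0.74, with an adjusted p of 0.0876 by exact permutation. Reg2 correlated with Reg3b at r = 0.75 (permutation p = 0.0161, adjusted 0.0322) and rho = 0.64 (permutation p = 0.0529, adjusted 0.0529). That relation rested on control 3, without which r was 0.36 (adjusted exact permutation p = 0.325). Without controls 2 and 3, r was 0.34 (exact permutation p = 0.393). Control 3 was the library farthest from the median of Reg3b. Control 2 tied for next with knockouts 1, 2 and 5, all listed at 0, so taking control 2 was arbitrary. Between Reg2 and Reg3b r was 0.75 without control 2, 0.75 without control 5, 0.72 without knockout 1 and 0.75 without controls 2 and 5. The adjusted exact permutation p of those 4 was 0.0499, 0.0516, 0.0876 and 0.0738, and a pseudocount of 1 gave r = 0.58 with an adjusted permutation p of 0.0932. Reg1 and Reg3b gave r = 0.54 (permutation p = 0.109, adjusted 0.109) and rho = 0.72 (permutation p = 0.0250, adjusted 0.0300). Without controls 2 and 3, control 2 again taken from that tie, the r of Reg1 and Reg3b was 0.47 (exact permutation p = 0.238). It was 0.74 without knockout 4 (adjusted exact permutation p = 0.0274).

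Relative to Cpa1 and Cpb1, Reg1 was lower in the average knockout, by less than on its own scale. The log2 value of Reg1 minus the mean log2 value of both enzymes was -2.45, -2.69, -2.01, -3.47 and -2.04 in controls 1 to 5. In knockouts 1 to 5 it was -4.11, -2.66, -3.28, -5.57 and -3.28. Knockouts 1 and 4 lay below every control, while knockout 2 lay above controls 2 and 4, and knockouts 3 and 5 lay above control 4. The group difference was -1.25, with an exact 2-sided permutation p = 0.0556 and p = 0.167 adjusted over 3 members. Without knockout 4 it was -0.80 (exact permutation p = 0.0794, adjusted 0.238).

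Libraries of like enzyme level can be set side by side, as pairs chosen after their values were seen. Knockout 3 had a mean log2 value of Cpa1 and Cpb1 of 12.61 and 633.3 normalized counts of Reg1, while controls 1 and 3, at 12.73 and 12.70, had 1229.2 and 1637.1. Knockout 1, at 11.15, had 124.2, and control 2, at 11.01, had 309.7, but control 2 is a library whose Esr1 level went against its label. The other 3 knockouts lay between 11.41 and 11.85, where no control lay. These libraries are set side by side as values only, with no test.

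For Reg2 the difference relative to Cpa1 and Cpb1 was -1.85 (exact permutation p = 0.159, adjusted 0.238), and without control 3 it was -0.90. For Reg3b it was -1.33 (exact permutation p = 0.421, adjusted 0.421), and without control 3 it was -0.16. With the mean log2 value of Cpa1 and Cpb1 as a covariate in limma, the difference was -1.21 ± 0.55 (SE) for Reg1, -2.15 ± 1.18 for Reg2 and -1.22 ± 1.32 for Reg3b. Each kept its direction, and none passed over all genes (adjusted p = 0.9998 for each by limma).

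**Figure D4:**
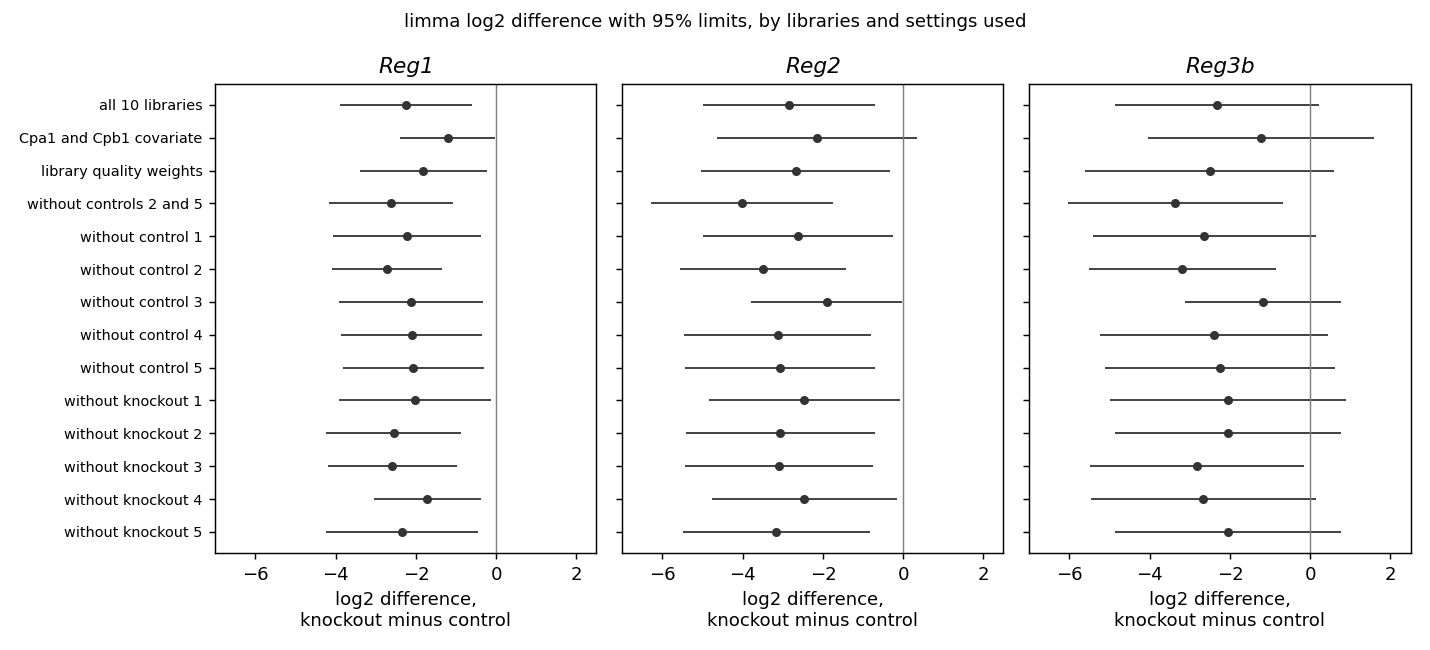
Log2 difference of Reg1, Reg2 and Reg3b, knockout minus control, by limma, with 95% limits, for all 10 libraries, with a covariate, with library weights and with libraries left out. All points lie below 0. Reg1 is nearest to 0 with the covariate (-1.21), and Reg2 and Reg3b move toward 0 without control 3 (-1.91 and -1.17).

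The genes whose log2 values were most like those of each tested member were found over the 10 libraries, as a description. For Reg1 they were Pfdn2 (r = 0.95), Ripk4 (0.92), Gm5148 (0.91), the acinar kallikrein gene Klk1 (0.91) and Wbp11 (0.90). In likeness to Reg1, Cpb1 ranked 120 and Reg2 137 of 11710 genes. For Klk1, knockouts 4 and 1, the libraries of lowest Reg1, had 145.9 and 291.1 normalized counts, and control 2, the lowest control for both genes, had 236.1.

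For Reg2 the most alike genes were Gm5124 (r = 0.92), Errfi1 (0.89), Gm2004 (0.88), Tgif1 (0.87) and Mypop (0.86), and Reg1 ranked 34. For Reg3b they were Extl2 (0.89), Foxk2 (0.88), Gm14659 (0.87), Heyl (0.87) and the acinar transcription factor gene Rbpjl (0.84), with Reg2 at rank 50. Some of these genes had low values over the 10 libraries: Gm5124 averaged 16.8, Gm14659 20.3, Heyl 13.7 and Rbpjl 22.8. Heyl and Rbpjl were each listed at 0 in 3 libraries. Errfi1, at 976.0, Foxk2, at 318.6, and Extl2, at 136.9, were higher. The 31 acinar enzyme genes had a median r of 0.75 with Reg1, 0.50 with Reg2 and 0.52 with Reg3b. The most alike genes were picked for their r from 11710 genes over only 10 libraries, so their high r follows in part from the picking. All these points also share their library and its depth, so no p is given.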

How the data were processed

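The authors deposited normalized counts per gene, a signal on a common scale between libraries, together with their own log2 fold changes, a test score and p-values for knockout against control. STAR 2.4.0.1, HTSeq and DESeq2 are the tools listed in the submitters' processing notes, with no roles, and the build and annotation are not given in the sources used here. Per the labels' protocols, RNA was depleted of ribosomal RNA and sequenced from a stranded kit on a NextSeq 500. Per library, 22.6% to 33.6% of nonzero values were whole multiples, within 0.01, of the commonest low value. Depth in reads was therefore not recovered, and no count model was used.

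The groups came from the genotype label, and libraries were numbered in accession order. The row with no gene name (0.00774% to 0.0251% of a library) was left out. Genes with a value of at least 10 in at least 5 libraries were kept, and log2(value + 8) was compared with limma 3.58.1 (R 4.3.3, trend, robust, Benjamini-Hochberg), which was tested on simulated data. Permutation tests (100000 resamples for correlations over 10 libraries, otherwise exact) used Python 3.11.15 with scipy 1.17.1, and figures matplotlib 3.10.9.

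The members and lists were chosen with earlier results of these data known. Named genes, besides list members given as absent or below the filter, were the members, Cpa1, Cpb1, Grk5 and Esr1, in each other list up to 3 tested genes by smallest p and up to 2 by highest mean, and the 5 most alike genes per member. Not all of them are printed, and Extl3, outside this rule, was added after its values were seen. Promoters are from RefSeq (GRCm38.p6) and positions and transcripts from GENCODE M21.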

Additional observations from a re-analysis of the deposited data

Results flagged for a closer look

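In groups of 5 libraries, the highest or lowest was set against its nearest neighbour, and a gap above 0.71 of the group's range was noted, which chance gives in about 1 in 20 groups of normally spread values. Counts with many zeros are not spread so, and that rate does not apply to them. Of 22 groups examined, 8 had such a library. Where 1 library alone was above 0 (Reg3a in both groups, Reg3g in knockouts), the gap is the whole range by construction. Control 3 stood apart from the other controls in 5 genes: Reg2 (2232.0, next 297.6), Reg3b (2137.2, next 99.2), Reg3a (166.7, next 0), Reg3g (110.6, next 21.6) and Reg3d (96.2, next 21.6). Among knockouts the noted values were low: Reg3g at 37.7 in knockout 2 (next 0), Reg3d at 21.4 in knockout 3 (next 5.81) and Reg3a at 7.06 in knockout 4 (next 0). These genes share their libraries, so the 8 are not independent.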

How the results depend on the processing

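Reg1 stayed lower in the knockouts in all 20 alternatives of the fit, and Reg2 and Reg3b in the 19 that tested them, since a minimum value of 50 left only Reg1. No member passed in any of them. Single libraries left out gave -2.72 to -1.72 for Reg1, -3.50 to -1.91 for Reg2 and -3.18 to -1.17 for Reg3b. Relative to Cpa1 and Cpb1 they gave -1.53 to -0.80, -2.51 to -0.90 and -1.78 to -0.16. A pseudocount of 1 gave -4.05 for Reg2 and -3.50 for Reg3b, and 32 gave -2.04 and -1.60. Over all genes, where limma called 0 (311 lower and 276 higher at an unadjusted p under 0.05), it called 1 with neither a variance trend nor robust variances (Commd8), 1 without controls 2 and 5 (Esr1, which chose that alternative) and 0 to 1 with single libraries left out (Ppp4r1l-ps, without control 1). Commd8 and Ppp4r1l-ps were named after their calls were seen. With single libraries left out, r with Cpa1 and Cpb1 ran from 0.77 to 0.86 for Reg1, from 0.45 to 0.72 for Reg2 and from 0.51 to 0.75 for Reg3b. The adjusted exact permutation p was 0.0298 for Reg2 without control 4 (r = 0.72), and 0.0368 and 0.0298 for Reg3b without control 3 (0.75) and control 4 (0.70). Depth in reads is unknown, so no counting error can be given for low Reg3 values. No paired analysis was made because the labels give no pairing of controls with knockouts. The serial numbers in the sample titles run with genotype, all knockouts before all controls. What these serial numbers stand for is not given, and their part in the Reg values cannot be told apart from genotype.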
